A study of Mus with 2 samples.

Results

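The outer rim of the rIL7 tumor section was taken as the capture spots that lay within 2 steps of the outline of the tissue, and it was compared with the interior of the same section, the spots 6 or more steps inside. A spot is a small printed area of the slide on which the RNA of the tissue above it is caught and given a position, and it can hold several cells of different types. Spots with more than 200 detected genes in the largest connected piece of tissue were kept. Step 1 was given to each spot with a neighbouring position on the hexagonal array that held no tissue, holes inside the tissue were ignored, and each further ring of spots added 1. The rim held 330 spots, 17.1% of the 1929 spots in the piece, and the interior held 1173. The 426 spots of steps 3 to 5 lay between them, and the series as a whole had 4172 spots over tissue in 2 sections.

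CT26, a colon carcinoma line of BALB/c mice, was grown under the skin of balb/c mice that were 6 to 8 weeks old. In the rIL7 group recombinant IL-7 was given at 10 µg by intraperitoneal injection on days 11 and 13, the control group received PBS, and the tumors were taken on day 15. The tumors were frozen in embedding medium, cut at 10 µm and measured with the Visium 3' assay, which counts unique molecular identifiers (UMIs) per gene and spot. There was 1 section per group, so spots are parts of 1 tumor and not replicates, no test between regions or treatments could be made, and animal, section and library cannot be told apart. The study speaks of a tumor periphery, but the tables used here do not mark where on the outline the tumor ended or where skin lay. CT26 tumors are implanted grafts of a single line, and both tumors share that origin.

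As background, the margin of a solid tumor is where its cells meet the vessels, connective tissue and leukocytes of the host. T cells read peptides on MHC class I and class II molecules, the class II molecules are carried mainly by dendritic cells, B cells and activated macrophages, and plasma cells secrete the immunoglobulins. IL-7 is a cytokine of stromal cells that keeps naive and memory T cells alive through its receptor, of which Il7r encodes the specific chain.

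The rim spots held 3923837 UMIs in all, with a median of 11166 per spot, and the interior spots held 16430605 with a median of 13625. Step 1 was shallower than step 2, at medians of 9490 and 12463 UMIs. Mitochondrial transcripts made up 0.233% of the UMIs at the rim and 0.124% in the interior. Levels below are counts of a gene's UMIs scaled to 1000000 UMIs of the region (CPM), a fold is the CPM of the rim over that of the interior, and the range in parentheses after it is the exact 95% interval, which covers counting error only. The spread within the section is given over 4 quadrants of the array, upper left, upper right, lower left and lower right as drawn, which share an animal and are not replicates. In spots of mixed content, fewer cells of a type and less RNA per cell cannot be told apart.

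**Figure D1:**
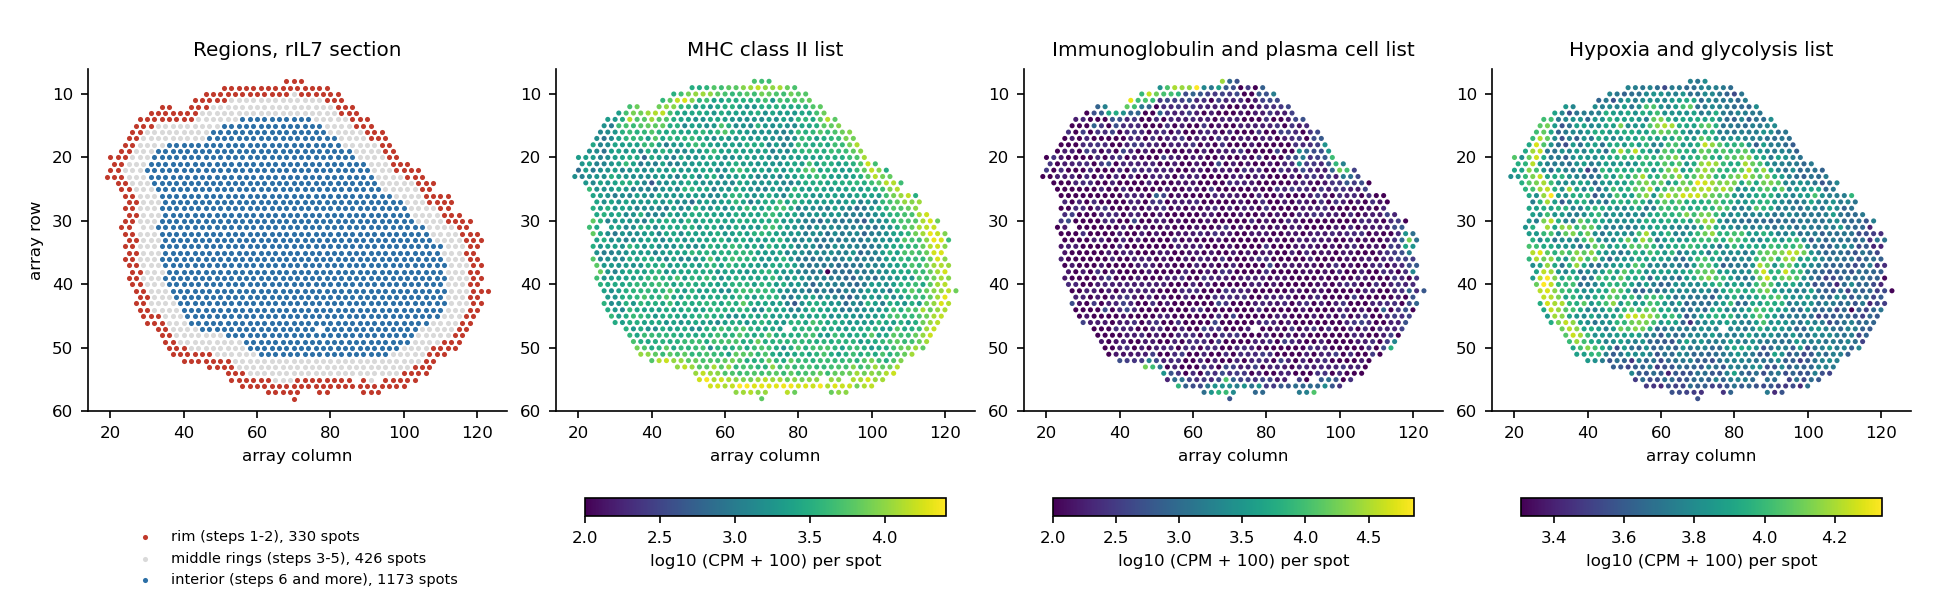
Maps of the rIL7 section on the array (column against row), with the 330 rim, 426 middle and 1173 interior spots in the first panel and each spot's summed CPM of 3 gene lists in the others, as log10 (CPM + 100). MHC class II was high along the right, lower and upper outline, immunoglobulin along the upper left, and hypoxia and glycolysis along the left.

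In all 7631 genes had a mean of rim and interior CPM of 20 or more. Of these, 232 stood at least 2-fold higher at the rim (3.04%) and 54 at least 2-fold lower (0.708%). For 220 of the former (2.88% of all genes) and 52 of the latter (0.681%), the 4 rim quadrants did not overlap with the 4 interior quadrants. The 232 genes held 4.49% of the UMIs at the rim and 1.5% in the interior. Among them 44 were at least 4-fold and 19 at least 8-fold higher. The median gene had a log2 fold of -0.05, near 0. The counts depended on how wide the rim was and on the filter. With step 1 alone as the rim 111 genes were lower and with steps 1 to 3 it was 22, and with no CPM minimum, over 13008 genes with a total of 20 UMIs or more, 962 genes were higher and 456 lower.

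The 15 genes with the highest folds were taken from those with a mean of 20 CPM or more whose quadrants did not overlap. They encode immunoglobulins, secreted enzymes and inhibitors, chemokines and matrix proteins. Ighg3, at 60.9-fold (37.8 to 104), was left out of them because its quadrants overlapped. Ighg2c, a constant region of IgG heavy chains, was at 239 CPM at the rim and 4.69 in the interior, a fold of 51.0 (40.4 to 65.2). Jchain, which joins IgM and IgA subunits and is made by plasma cells, was at 56.3 and 1.34 CPM, 42.1-fold (27.1 to 68.5). Cpxm1, a secreted carboxypeptidase-like protein, was at 186 and 5.96 CPM, 31.2-fold (25.2 to 38.9). The levels of Cpxm1 were 287, 171, 159 and 120.1 CPM in the 4 rim quadrants. A rim above the interior on all sides was a condition of the choice. Pla2g2d, a secreted phospholipase A2, was at 59.4 and 2.80 CPM, 21.2-fold (15.4 to 29.8), and its rim quadrants ran from 12.2 at the upper left to 159 at the lower right. Slpi, an inhibitor of leukocyte proteases, was at 178 and 10.0 CPM, 17.8-fold (15.0 to 21.2), and ran the other way, from 496 CPM at the upper left to 71.6 at the lower right. Cxcl12, the stromal chemokine that binds Cxcr4, was 15.6-fold (12.3 to 19.9) higher, and Cxcl14, another chemokine of epithelium and stroma, 9.73-fold (7.74 to 12.3). Matrix and fibroblast genes among the 15 highest were Pi16, a marker of fibroblasts around vessels, at 12.1-fold (8.76 to 16.9), Lox, which cross-links collagen, at 11.7-fold (8.89 to 15.5), and Col5a2, a chain of collagen V, at 10.6-fold (8.47 to 13.3). The predicted gene Gm15056 at 12.7-fold (10.1 to 16.1) and Gpx3, a secreted glutathione peroxidase, at 10.2-fold (8.44 to 12.4) completed the 15 with Ighg1, Ighg2b and Igkc, which are described with the other immunoglobulin genes.

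The 15 genes with the lowest folds, taken by the same rule, lay nearer to 1. Scube3, a secreted protein of the cell surface, was at 8.92 CPM at the rim and 41.6 in the interior, a fold of 0.214 (0.148 to 0.301), the lowest of the 15. Cxcl5, a chemokine for neutrophils, was at 91.2 and 339 CPM, a fold of 0.269 (0.241 to 0.299). Clu, an extracellular chaperone, was at 119.8 and 334 CPM, a fold of 0.359, and Osmr, a receptor chain for oncostatin M, at 70.6 and 178 CPM, a fold of 0.397. Each rim quadrant was below each interior quadrant in these genes, but that was a condition of the choice and holds for all 15. The other 11 were Gm26532, Gng8, Gzmg, Id3, Cacna1c, Wdr66, Prelp, the agouti gene, Ebf4, Adora2b and Bmper, with folds of 0.318 to 0.405. They include a granzyme (Gzmg), an adenosine receptor (Adora2b) and an inhibitor of bone morphogenetic proteins (Bmper). Of all 54 genes at least 2-fold lower, 4 belong to a gene list, and of the 232 higher genes 75 do. The lists hold 470 of the 32285 features and were chosen with earlier results of these data known. The 2 counts therefore depend on which lists were drawn up and are not a result about the genes.

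**Figure D2:**
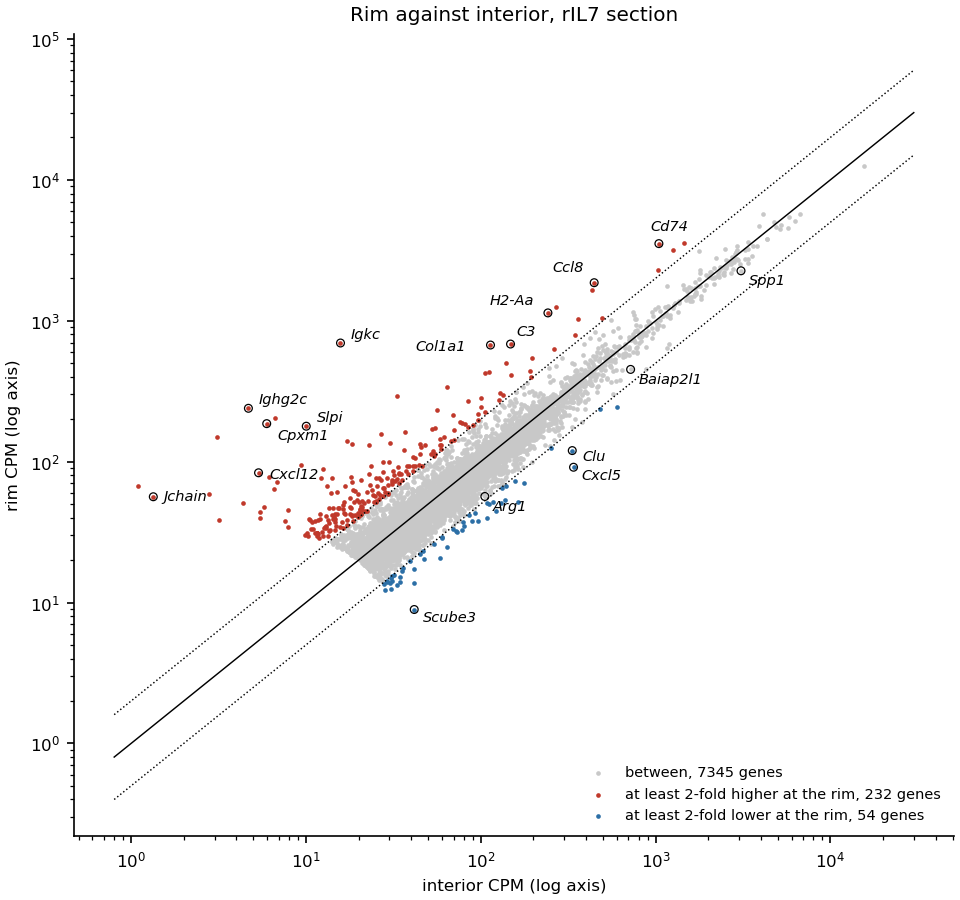
CPM at the rim against CPM in the interior of the rIL7 section for 7631 genes, both axes on a log scale, with the genes at least 2-fold higher (232) and lower (54) at the rim in colour. The immunoglobulin genes, Cpxm1 and Pla2g2d lie farthest above the diagonal, and Scube3 and Cxcl5 lie farthest below it.

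Gene lists were described by the number of their genes past 2-fold, by the median log2 fold of their genes and by their summed CPM. Medians and counts took in genes with a total of 20 UMIs or more in rim and interior. Of all 13008 genes at that depth, 7.4% were at least 2-fold higher at the rim and 3.51% at least 2-fold lower, and the median log2 fold was -0.04. Each list's count is to be read against these shares.

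All 11 measured genes of the immunoglobulin and plasma cell list were at least 2-fold higher at the rim, with a median log2 fold of 4.99, the highest of the lists. The list summed to 1535 CPM at the rim and 49.4 in the interior, 31.1-fold (28.9 to 33.5). Igkc, the kappa light chain constant region, was at 695 and 15.8 CPM, 44.1-fold (38.8 to 50.3). Ighg1, another IgG heavy chain, was at 149.9 and 3.10 CPM, 48.3-fold (36.2 to 65.6), and Ighg2b at 204 and 6.69 CPM, 30.5-fold (25 to 37.6). Ighm, the heavy chain of IgM, differed less, at 88.2 and 12.5 CPM, 7.07-fold (5.93 to 8.44). Mzb1, which helps fold and assemble immunoglobulin in plasma cells, was 31.8-fold (12.5 to 104) higher. On the mouse assembly GRCm38.p6 Igkc lies on chromosome 6 from 70726435 to 70726754 and Ighg2c on chromosome 12 from 113287389 to 113288932. Igha, the IgA heavy chain, was below the minimum, with 4 UMIs at the rim and 12 in the interior.

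The make-up of the immunoglobulin transcripts also differed between the regions. Of 2948 heavy chain UMIs at the rim, Ighg2c took 31.8%, Ighg2b 27.2%, Ighg1 19.9%, Ighm 11.7% and Ighg3 8.89%. Of 476 in the interior, Ighm took 43.1% and Ighg2b 23.1%. Kappa made up 96.5% of the light chain UMIs at the rim (95.8 to 97.1), 2727 against 99 of lambda. The constant regions are near-identical copies in part, so the split between them is uncertain, and BALB/c mice carry an Ighg2a gene where the reference strain has Ighg2c. Over all 389 immunoglobulin genes of the annotation the sum was 1542 CPM at the rim and 49.5 in the interior, so the total does not rest on how reads were split.

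The immunoglobulin transcripts were not spread evenly along the rim. The rim quadrants held 1884, 410.3, 242 and 237 CPM of Igkc against 16.4, 20.6, 14.8 and 11.7 in the interior. Ighg2c was at 826 CPM in the upper left rim quadrant and at 43.8, 24.7 and 69.2 in the others, whereas Ighg1 was highest at the upper right, at 258 CPM against 120.4, 93.5 and 125. In every quadrant the rim was above the interior for these 3 genes, which the rule for the 15 highest required. The outline was also cut into 8 sectors of 45 degrees, numbered clockwise on the map from the right, so that sectors 1 and 2 lie at the lower right, 3 and 4 at the lower left, 5 and 6 at the upper left and 7 and 8 at the upper right. Sector 6 held 10279.8 CPM of the list, and sectors 4 and 5, the left flank, held 37.7 and 46.5, below their own interiors at 45 and 50.9. Without sector 6, a stretch picked after its values were seen, the fold of the list was 13.1, that of Ighg2c 7.85 and that of Igkc 15.9, while that of Ighg1 was 43.0. The rim then held 475 UMIs of Ighg1, 322 of Ighg2b and 131 of Ighg2c, the reverse of their order over the whole rim. Without the upper left quadrant the median log2 fold of the list was 3.22.

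Markers of B cells themselves were sparse. Of the B cell list 3 of 8 genes reached the minimum, and all of these were at least 2-fold higher at the rim, Cd79a at 4.19-fold (1.72 to 10.2), Cd79b at 9.63-fold (4.41 to 22.7) and Cd22 at 4.19-fold (3.05 to 5.75), the first 2 encoding the signalling chains of the B cell receptor. The defining markers Ms4a1 and Pax5 had no UMI at the rim. A count of 0 among the UMIs of the rim does not show that these transcripts were absent.

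T cell markers were higher at the rim. The T cell list summed to 651 CPM at the rim and 236 in the interior, 2.76-fold (2.62 to 2.90), and its rim quadrants at 465 to 1036 CPM did not overlap with its interior quadrants at 206 to 276. Of 12 genes, 11 were at least 2-fold higher, and Trbc2, a constant region of the T cell receptor beta chain, was at 1.76-fold (1.61 to 1.93). Trac, the constant region of the alpha chain, was at 76.7 CPM at the rim and 14.2 in the interior, 5.41-fold (4.54 to 6.45). Cd4, the coreceptor of helper T cells, which macrophages and dendritic cells can also express, was at 30.3 and 2.56 CPM, 11.9-fold (8.28 to 17.3), the largest fold of the list. The coreceptor of cytotoxic T cells differed less, with Cd8a at 39.0 and 14.4 CPM, 2.71-fold (2.20 to 3.34), and Cd8b1 at 4.48-fold (3.20 to 6.28). The signal chains Cd3e, Cd3g and Cd3d of the receptor complex were at 3.79-fold, 4.07-fold and 4.35-fold.

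Genes of T cell state did not all share the fold of the T cell receptor genes. In the cytotoxic and NK list 9 of 14 genes were at least 2-fold higher at the rim, with a summed fold of 2.18 (2.10 to 2.27). A large part of that sum was the chemokine gene Ccl5, at 730 and 387 CPM in steps 1 and 2, where the list was at 1156 and 789. Nkg7, a granule protein, was at 2.74-fold (2.35 to 3.18), Ifng, the cytokine interferon gamma, at 2.71-fold (1.81 to 4.02), and Klrk1, the activating receptor NKG2D, at 3.48-fold (2.78 to 4.35). The granule proteins that kill target cells were nearer to 1, with Gzma at 1.08-fold (0.95 to 1.22), Gzmb at 1.26-fold (1.06 to 1.50) and the pore-forming Prf1 at 1.12-fold (0.922 to 1.35). Gzmb stood at 44.9 CPM at the rim and 35.5 in the interior, a smaller step between the regions than that of Cd8a. For checkpoint and regulatory T cell genes 5 of 8 were at least 2-fold higher, among them Pdcd1, the receptor PD-1, at 5.29-fold (3.84 to 7.31), Ctla4 at 2.83-fold (1.96 to 4.04), Lag3 at 2.62-fold (1.52 to 4.42) and Foxp3, the factor of regulatory T cells, at 3.26-fold (1.75 to 5.98). Havcr2, the receptor TIM-3, was at 1.68-fold (1.34 to 2.10), and Cd274, the ligand PD-L1, at 1.97-fold (1.63 to 2.37).

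In the list of naive T cells and lymphoid homing 6 of 7 measured genes were at least 2-fold higher. Cxcl13, the chemokine that draws B cells into follicles, had 59 UMIs at the rim and 9 in the interior, 27.5-fold (13.5 to 63.0). Ccr7, the receptor that brings naive T cells and mature dendritic cells to lymph nodes, was at 4.58-fold (3.22 to 6.53), with 32.0 CPM in step 1 and 5.69 in step 2. Tcf7, a factor of naive and stem-like T cells, was at 3.41-fold (2.12 to 5.45), and Ltb, lymphotoxin beta, at 3.97-fold (3.34 to 4.72). Il7r was at 2.90-fold (1.94 to 4.30), from 45 UMIs at the rim and 65 in the interior.

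Of 10 measured genes of the IL-7 axis, Il7r was the 1 at least 2-fold higher and Il7 the 1 lower, and the median log2 fold was 0.19. Il2rg, the chain that the IL-7 receptor shares with other cytokine receptors, was at 1.80-fold (1.63 to 1.99). The kinases Jak1 and Jak3 were at 1.07-fold and 1.09-fold and Stat5a, the factor that they activate, at 0.990-fold. The feedback inhibitors Cish and Socs1 were at 1.81-fold (1.30 to 2.48) and 1.56-fold (1.32 to 1.84). Il7 had 2 UMIs at the rim and 20 in the interior, a fold of 0.419 (0.0475 to 1.72), so few that its fold is poorly set. The injected protein leaves no transcript.

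All 9 measured genes of the MHC class II list were at least 2-fold higher at the rim. The list summed to 8009 CPM at the rim and 2162 in the interior, 3.70-fold (3.65 to 3.76), with rim quadrants from 4473 to 12839 CPM and interior quadrants from 1864 to 2898. H2-Aa, the alpha chain of I-A (chromosome 17, 34282744 to 34287823), was at 1137 and 242 CPM, 4.69-fold (4.50 to 4.90). Its rim quadrants were at 600.1, 1229.9, 923 and 1941 CPM and its interior quadrants at 228, 209, 318 and 239, so the lowest rim quadrant was above the highest interior one. Its partner H2-Ab1 was at 3.83-fold (3.70 to 3.96) and H2-Eb1, the beta chain of I-E, at 4.66-fold (4.47 to 4.85). Cd74, the invariant chain that guards the peptide groove, was at 3527 and 1045 CPM, 3.38-fold (3.30 to 3.45), and Ciita, the factor that switches the class II genes on, at 3.37-fold (2.69 to 4.20). The peptide loading factors H2-DMa, H2-DMb1 and H2-DMb2 were at 2.45-fold, 2.54-fold and 2.06-fold, below the chains that they load.

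MHC class I genes differed less. None of the 14 genes of that list was 2-fold higher or lower, and the list summed to 13934 CPM at the rim and 10805 in the interior, 1.29-fold (1.28 to 1.30). The heavy chains H2-K1 and H2-D1 were at 1.24-fold and 1.21-fold and B2m, their common partner, at 1.31-fold. Tap1, a peptide transporter, was at 1.63-fold and Psmb9, a subunit of the immunoproteasome, at 1.79-fold. Nlrc5, the factor that switches class I genes on, was at 1.04-fold (0.961 to 1.12).

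Macrophage genes were split. In the general macrophage list 4 of 12 genes were at least 2-fold higher at the rim, and the list summed to 7086 and 3440.1 CPM, 2.06-fold (2.03 to 2.09). C1qa, a chain of complement C1q, was at 1048 and 494 CPM, 2.12-fold (2.04 to 2.20), Apoe, a lipid carrier, at 2.53-fold (2.48 to 2.59), and Adgre1, the antigen F4/80, at 2.33-fold (2.00 to 2.71). Cd68, a lysosomal glycoprotein, was at 1.17-fold (1.07 to 1.26), Itgam, the integrin CD11b, at 1.15-fold (1.01 to 1.30), and Cd14, the coreceptor for lipopolysaccharide, at 0.877-fold (0.763 to 1.0). Pf4, platelet factor 4, was at 389 and 303 CPM, 1.28-fold (1.21 to 1.36).

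The lists of macrophage states had few genes past 2-fold. Of 9 genes linked to resident macrophages, Selenop, a selenium carrier, was at 3.06-fold (2.80 to 3.35) and Cbr2, a carbonyl reductase, at 0.416-fold (0.320 to 0.535), and Mrc1 and Folr2 were at 1.1-fold and 1.09-fold. Of 10 lipid-handling genes, the lipase Lpl and the fatty acid receptor Cd36 were at 4.47-fold (3.31 to 6.04) and 4.28-fold (3.15 to 5.84), whereas Gpnmb was at 0.433-fold and Trem2 at 0.976-fold. Endothelium and fat also express Lpl and Cd36. Spp1, osteopontin, was at 2262 and 3082 CPM, 0.734-fold (0.717 to 0.751), and Arg1, the arginase of alternatively activated macrophages, at 56.6 and 106 CPM, 0.536-fold (0.464 to 0.617). The rim quadrants of Arg1 were at 56.1, 29.2, 107 and 24.3 CPM and its interior quadrants at 86.1, 94.8, 87.5 and 145, so it was above the interior in the lower left quadrant and below it in the others. The middle rings held 46.0 CPM of Arg1, less than the rim, so its level was not lowest at the outline. In the pro-inflammatory list 4 of 10 genes were at least 2-fold higher, among them Tnf at 3.46-fold (2.55 to 4.69). Il1b was at 1.18-fold (1.08 to 1.28) with the rim above the interior in 3 of 4 quadrants, Nos2 at 1.34-fold (0.897 to 1.95) and Il6 at 0.627-fold.

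Of 6 monocyte genes 4 were at least 2-fold higher at the rim, with Ly6c2, the antigen of classical monocytes, at 5.05-fold (4.21 to 6.07) and Ms4a4c at 3.42-fold (2.88 to 4.05), while Ccr2 was at 1.56-fold (1.37 to 1.78). Dendritic cell genes were sparse, and 3 of 6 passed 2-fold while 1 was below 1. The list summed to 322 CPM at the rim and 245 in the interior, 1.31-fold (1.23 to 1.40), and was above its interior in 6 of 8 sectors. Among the 3 genes past 2-fold, Flt3, a growth factor receptor of dendritic cell precursors, had 35 and 21 UMIs, 6.98-fold (3.95 to 12.6). Siglech, a receptor of plasmacytoid dendritic cells, had 45 and 25 UMIs, 7.54-fold (4.52 to 12.8). Mast cell genes, 5 in number, were all at least 2-fold higher, with the proteases Cma1 and Cpa3 at 4.13-fold (2.92 to 5.84) and 3.71-fold (2.35 to 5.85). Neutrophil genes were at 222 CPM summed at the rim and 311 in the interior, 0.715-fold (0.664 to 0.768), with 0 of 7 genes 2-fold higher and 1 2-fold lower. Their rim quadrants at 132 to 411 CPM overlapped with the interior quadrants at 203 to 406, and the rim was above its interior in 3 of 8 sectors. The dendritic cell, resident-like and lipid-handling macrophage lists also had rim and interior quadrants that overlapped.

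Genes that leukocytes and stroma secrete were higher at the rim in several groups. In the complement list 7 of 14 genes were at least 2-fold higher, and C3, the central component, was at 683 and 148 CPM, 4.62-fold (4.37 to 4.88). C4b of the classical pathway was at 5.88-fold (5.20 to 6.66), Cfb of the alternative pathway at 4.11-fold (3.75 to 4.51), and the inhibitor Serping1 at 8.15-fold (7.05 to 9.44). C1s1, a protease of the C1 complex, was at 0.735-fold. In the acute-phase and defense list 5 of 6 genes passed 2-fold, with Lbp, which binds lipopolysaccharide, at 22.2-fold (12.9 to 40.7) and Saa3, a serum amyloid protein, at 4.59-fold (3.43 to 6.15), and Lcn2, lipocalin 2, was at 0.304-fold with overlapping quadrants. Sector 6 weighed on this list, whose fold was 5.15 in all and 2.95 without that sector.

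In the chemokine list 9 of 22 genes were at least 2-fold higher. Ccl8, which draws monocytes and other leukocytes, was at 1862 and 446 CPM, 4.18-fold (4.05 to 4.32). Cxcl9 and Cxcl10, ligands of the chemokine receptor Cxcr3 on T cells that interferon gamma induces, were at 4.02-fold (3.76 to 4.30) and 2.29-fold (2.16 to 2.43), and Ccl22, a ligand of Ccr4, at 7.66-fold (5.17 to 11.5). The monocyte chemokine Ccl2 and the neutrophil chemokine Cxcl1 were at 0.746-fold and 0.546-fold, on the side of Cxcl5. Cxcl2, also a neutrophil chemokine, was at 0.692-fold. Ccl17, the other ligand of Ccr4, had 16 UMIs at the rim and 94 in the interior, 0.713-fold (0.391 to 1.22), an interval that includes 1.

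Interferon-stimulated genes were at least 2-fold higher at the rim for 8 of 18 genes of the type I list, which summed to 2683 and 1398 CPM, 1.92-fold (1.87 to 1.96). Ifi27l2a was at 3.60-fold (3.39 to 3.82), Irf7 at 2.17-fold (2.01 to 2.33) and Isg15 at 1.82-fold (1.65 to 1.99). Of the interferon-inducible GTPases, 4 of 13 passed 2-fold, with Gbp5 at 2.83-fold (2.09 to 3.81). In the control section the type I list had 10 of 18 genes past 2-fold, where 1.2% of 12791 genes were, and summed to 2533 and 1345 CPM, 1.88-fold, so a rim above its interior in these genes was seen in both sections.

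Stromal genes differed from one another. In the fibroblast list 5 of 11 genes were at least 2-fold higher, with Lum, lumican, at 7.96-fold (5.03 to 12.8) and Pi16 as given above, whereas Dcn, decorin, Dpt, dermatopontin, and the receptor Pdgfra were at 0.756-fold, 0.802-fold and 0.524-fold. Col1a1, a chain of the fibrillar collagen I, was at 672 and 114 CPM, 5.91-fold (5.57 to 6.28), while its partner Col1a2 was at 1.55-fold (1.50 to 1.61). The collagen and matrix list had 8 of 16 genes past 2-fold and summed to 5721 and 3365 CPM, 1.70-fold (1.67 to 1.73). Its rim quadrants, at 3501 to 7204 CPM, overlapped with its interior quadrants at 3263 to 3535. Fn1, fibronectin, was at 1.04-fold and Col6a1 at 1.01-fold. Of the proteases, Mmp2, which cleaves collagen IV and gelatin, was at 3.32-fold (2.90 to 3.81), and the stromelysin Mmp3, the macrophage elastase Mmp12 and the collagenase Mmp13 were at 0.486-fold, 0.525-fold and 0.562-fold.

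Genes of vessels and their support cells were mostly higher. In the endothelial list 8 of 11 genes passed 2-fold, with Vwf, von Willebrand factor, at 8.54-fold (5.20 to 14.4), Kdr, the main receptor for VEGF, at 3.37-fold (2.42 to 4.67) and Pecam1 at 2.05-fold (1.69 to 2.48). Flt1, another VEGF receptor, was at 0.708-fold (0.564 to 0.880). In the mural and myofibroblast list 7 of 9 genes passed it, with Postn, periostin, at 7.30-fold (5.60 to 9.57), Rgs5 of pericytes at 4.15-fold (3.11 to 5.53) and Acta2, smooth muscle actin, at 2.22-fold (1.84 to 2.67), while the receptor Pdgfrb was at 0.709-fold.

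Markers of tissues around a subcutaneous graft were checked at the rim. Skeletal muscle genes had 35 UMIs in all at the rim, red cell genes 10 and Schwann cell genes 68. Keratinocyte genes had 132, of which 115 were Krt10, and the basal keratins Krt5 and Krt14 had 0 and 1. Fat genes were present, with 5 of 6 measured genes past 2-fold. Cfd, adipsin, was at 16.9-fold (10.5 to 28.4) and Car3, a carbonic anhydrase of fat and muscle, had 68 UMIs at the rim and 3 in the interior, a fold of 94.9 (31.1 to 472). Adipoq, the defining fat hormone, had 6 and 3 UMIs. The part of fat or other host tissue in the folds above was not tested.

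Genes that mark the CT26 cells were lower at the rim but were not absent from it. The study's pair of CT26 markers, Rpl39l, a ribosomal protein variant, and Baiap2l1, a protein of membrane curvature, summed to 757 CPM at the rim and 1124 in the interior, 0.674-fold (0.648 to 0.700). Rpl39l was at 0.757-fold (0.711 to 0.805) and Baiap2l1 at 0.627-fold (0.596 to 0.659). The rim quadrants at 626 to 851 CPM lay below the interior quadrants at 1028 to 1212. The study used both genes as tumor markers, so they are not an independent choice.

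Proliferation genes did not follow the tumor markers. None of 18 was 2-fold higher or lower, and the list summed to 2275 CPM at the rim and 1855 in the interior, 1.23-fold (1.20 to 1.26). Hypoxia and glycolysis genes were also between 0.5 and 2 in all 17 cases, and summed to 6927 and 8141 CPM, 0.851-fold (0.840 to 0.862). Ldha, lactate dehydrogenase A, was at 0.824-fold, Pgk1 at 0.824-fold, Slc2a1, the glucose transporter GLUT1, at 0.840-fold and Bnip3, a mitophagy receptor induced by low oxygen, at 0.683-fold, while Car9, carbonic anhydrase IX, was at 1.28-fold (0.907 to 1.78). The rim quadrants of this list spanned 4139 to 10142 CPM and enclosed the interior quadrants at 7331 to 8760.4.

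Lists of metabolism and of signalling did not all lie near 1. Sterol and fatty acid synthesis had 0 of 16 genes past 2-fold and a summed fold of 0.946, the nuclear genes of the respiratory chain 0 of 13 and 0.983, and the TGF-beta list 0 of 11 and 0.910 (0.879 to 0.942). The median log2 fold of the TGF-beta genes was 0.07, the other side of 1 from their sum, whose rim quadrants at 956 to 1040.1 CPM lay below the interior quadrants at 1064 to 1147. The mitochondrial genes of the respiratory chain stood at 1.89-fold, with 2 of 11 past 2-fold, and are part of the mitochondrial share of UMIs given with the depth. Immediate early genes had 2 of 10 past 2-fold, Fos at 7.23-fold (6.26 to 8.35) and Zfp36 at 2.40-fold (2.19 to 2.63), and Egr1 was at 1.09-fold (0.982 to 1.20). Of the 10 genes 9 were above 1, and the list summed to 1124 and 687 CPM, 1.63-fold (1.58 to 1.69). Its rim quadrants at 1033 to 1229.8 CPM lay above its interior quadrants at 662 to 706.

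**Figure D3:**
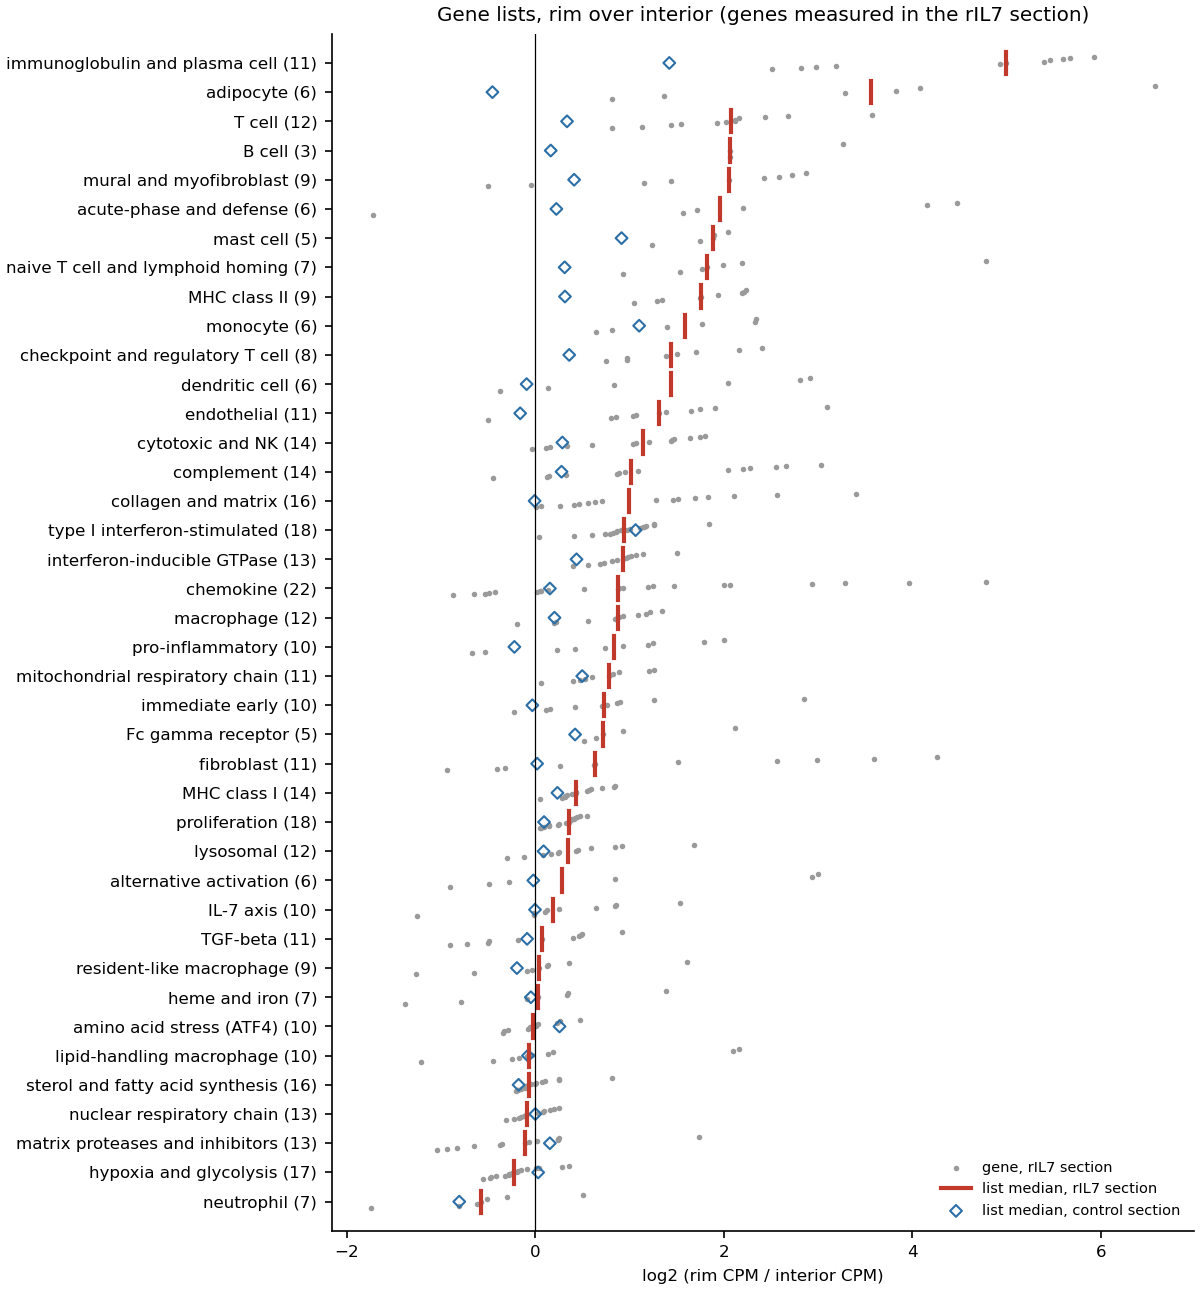
Log2 fold of rim over interior for the genes of each list with at least 3 measured genes in the rIL7 section (dots), with the list medians in the rIL7 section (red) and the control section (blue diamonds). The rIL7 medians run from 4.99 for immunoglobulin and plasma cell genes to below 0 for neutrophil genes, and most of the blue diamonds lie nearer to 0.

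The levels ran down at different rates from the outline to the centre. The immunoglobulin and plasma cell list was at 2508 CPM in step 1, 699 in step 2, 158 in step 3 and 38.7 in steps 12 and more, so most of its excess lay in the outermost ring. The acute-phase and defense list had a like profile, at 502, 149 and 59.1 CPM in the first 3 steps. MHC class II declined more slowly, from 8773 CPM in step 1 and 7352 in step 2 to 4545, 3501 and 3002 in steps 3, 4 and 5, and was at 2005 in steps 12 and more. T cell genes were at 742, 574 and 378 CPM in steps 1 to 3 and at 210.4 in steps 12 and more. The type I interferon list had no peak at the outline itself, with 2517, 2825, 2741 and 2085 CPM in steps 1 to 4. The CT26 markers ran the other way, from 718 CPM in step 1 to 1048 in step 5 and 1113 in steps 12 and more. Hypoxia and glycolysis genes had no single direction, at 6278 CPM in step 1, 7485 in step 2, 6141 in step 5 and 8845 in steps 12 and more. Arg1 had none either, at 61.2 CPM in step 1, 41.1 in step 4 and 136 in steps 12 and more.

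**Figure D4:**
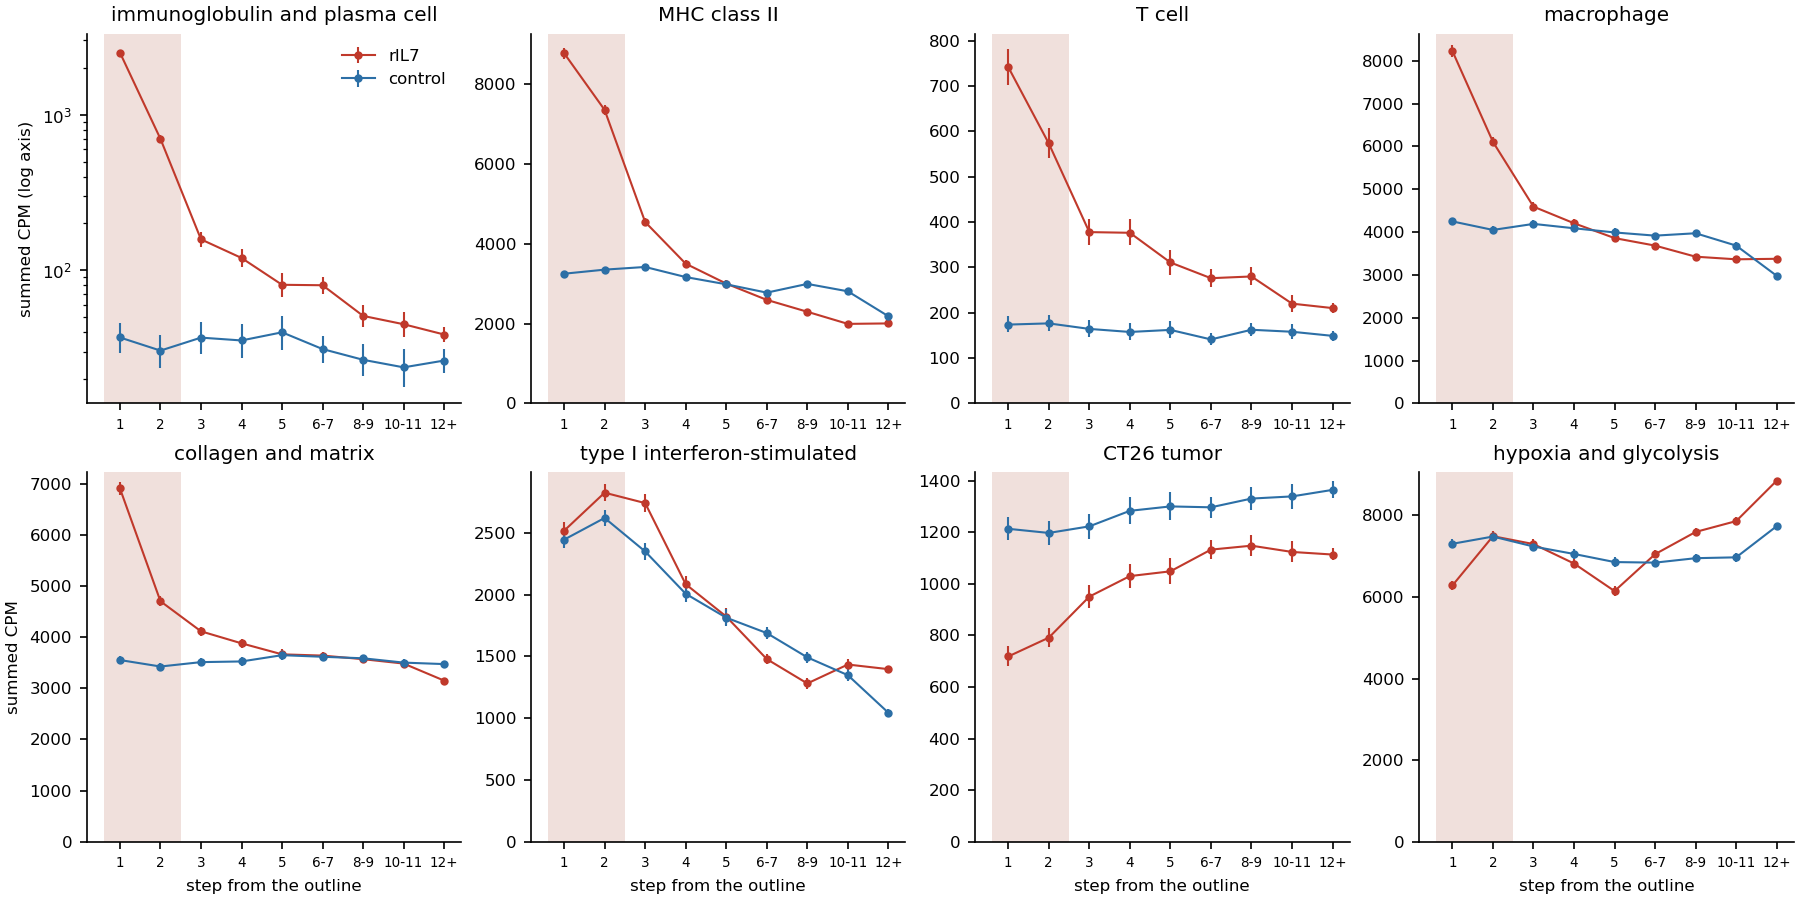
Summed CPM of 8 gene lists by step from the outline (1 is outermost) in the rIL7 and control sections, on a log axis for immunoglobulin and plasma cell and linear ones from 0 for the others, with 95% Poisson intervals for counting error and the rim shaded. In the rIL7 section immunoglobulin genes were at 2508 CPM in step 1 and 158 in step 3, while MHC class II genes were at 8773 and 4545.

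Around the outline the rim was not uniform. T cell genes were above their own interior in all 8 sectors and ran from 296 CPM in sector 5 on the left to 1172 in sector 2 at the lower right. MHC class II genes were also above their interior in all 8, but by little on the left, where sector 4 had 3273 CPM against 2777 and sector 5 had 2434 against 2008. In the other 6 sectors the rim level of MHC class II was 6889 to 13951 CPM. Hypoxia and glycolysis genes had the opposite map, at 13329 and 9299 CPM in sectors 4 and 5 against 8020.4 and 7640.0 inside, and below their interior in the other 6, where the rim was at 4066 to 5312 CPM. Collagen and matrix genes were highest in sector 6, at 9061 CPM, and lowest in sector 1, at 3165, just above its interior at 3029. The CT26 markers were below their interior in all 8 sectors.

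The left stretch of the rim lowered several of the folds given above. Without sectors 4 and 5, picked after their values were seen, 244 rim spots remained, 393 genes were at least 2-fold higher and 105 lower, MHC class II was at 4.87-fold (4.79 to 4.95), T cell genes at 3.46-fold (3.28 to 3.65), macrophage genes at 2.46-fold (2.42 to 2.50) and hypoxia and glycolysis genes at 0.572-fold (0.562 to 0.583). Stromal lists did not share a pattern in sectors 4 and 5. Collagen and matrix genes stood there at 6604 and 6171 CPM, against 3468 and 3583 inside. Endothelial genes were at 99.2 and 115 CPM, against 137 and 113 inside, and mural and myofibroblast genes in sector 4 at 136 against 149.

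**Figure D5:**
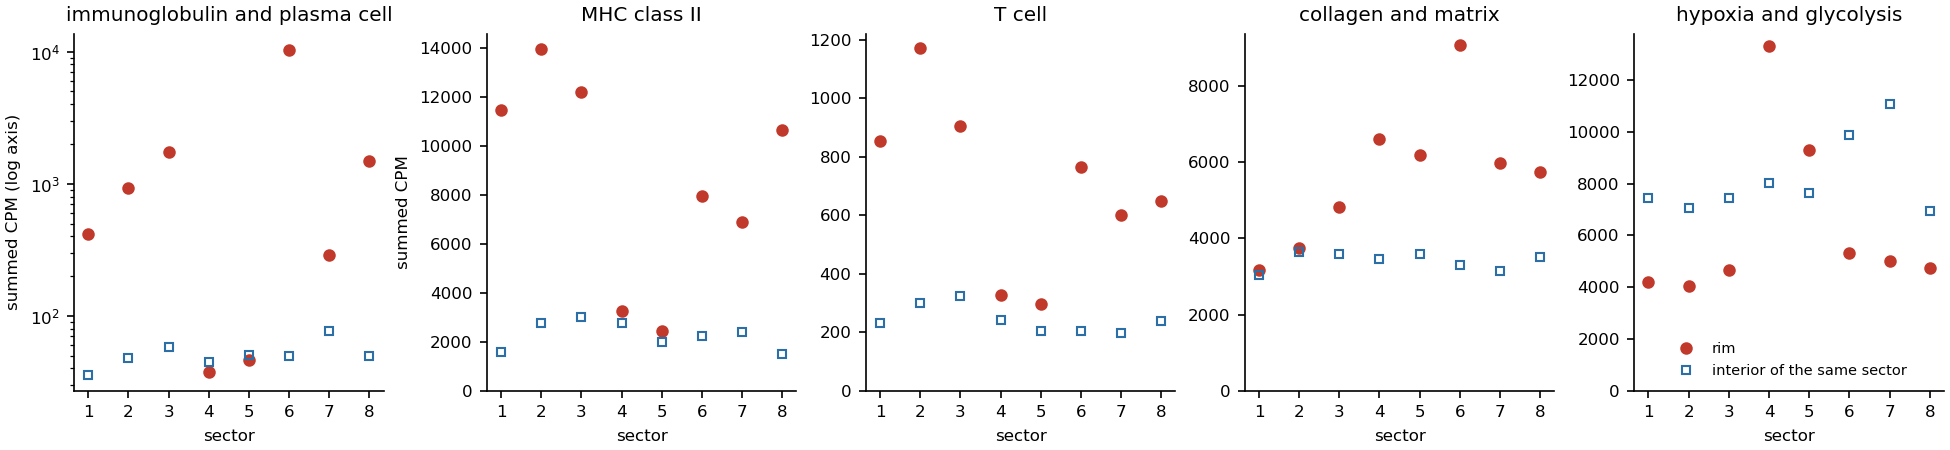
Summed CPM of 5 gene lists by sector of 45 degrees in the rim and in the interior of the same sector of the rIL7 section, with 35 to 47 rim spots per sector. Sectors 4 and 5 have the lowest T cell and MHC class II and the highest hypoxia and glycolysis levels of the rim, and sector 6 has the highest immunoglobulin level.

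Levels per spot were compared after each spot was thinned to 3000 UMIs, which left out 10 rim spots and 1 interior spot. At that depth the median number of genes was 1765 at the rim and 1775 in the interior. At least 1 UMI of Igkc was seen in 32.5% of rim spots (27.4 to 37.9) and 4.78% of interior spots (3.63 to 6.16), and of Cd4 in 9.06% of rim spots (6.15 to 12.8) and 0.853% of interior spots (0.410 to 1.56). Cxcl9 was seen in 62.8% of rim spots (57.3 to 68.1) and 27.0% of interior spots (24.4 to 29.6) and Col1a1 in 71.9% of rim spots (66.6 to 76.7) and 28.0% of interior spots (25.4 to 30.7). These genes were thus found in more spots of the rim, and were not only higher in a few. Arg1 was seen in 12.2% of rim spots (8.81 to 16.3) and 23% of interior spots (20.6 to 25.5). Before thinning the shares were 48.5% and 17.4% for Igkc, 24.5% and 3.58% for Cd4, 87.9% and 70.7% for Cxcl9, 90.3% and 74.9% for Col1a1 and 33.3% and 62.5% for Arg1, rim first.

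The lists differed in how far a few spots held their UMIs. The 32 highest of the 320 thinned rim spots held 81.1% of the UMIs of the immunoglobulin and plasma cell list and 65.1% of the acute-phase and defense list. They held 31.4% of T cell, 25.3% of collagen and matrix, 23.1% of MHC class II and 19.8% of macrophage UMIs. No UMI of the immunoglobulin list was seen in 150 of the spots, and the highest spot had 208, whereas every spot had MHC class II UMIs, with a median of 22.

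Within the rim, MHC class II levels ran with those of macrophage genes over the 320 thinned spots (Spearman's rho 0.79) and of complement genes (0.76), less with T cell genes (0.50), and against hypoxia and glycolysis genes (-0.67) and collagen and matrix genes (-0.36). Over the 1172 interior spots the same values were 0.18, 0.17, 0.13, -0.07 and 0.04. The macrophage and complement lists share 3 genes and ran with each other at 0.84 in the rim, so their values with MHC class II are not separate. Spots share a library and neighbours share cells and position, and all spots were at 1 depth, so these values describe the section and carry no p-value.

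The control section, split the same way into 401 rim and 1319 interior spots, had 21 genes at least 2-fold higher at the rim (0.278% of 7549) and 10 lower (0.132%). Of the 232 genes higher at the rim of the rIL7 section, 149 also reached 20 CPM on average in the control section, where 138 of them were above 1 and 17 at least 2-fold higher. Of all 7549 genes 36.2% were above 1 there. Without that minimum all 232 had a median log2 fold of 0.37 in the control section, against 1.41 in the rIL7 section. Of the 54 lower genes 51 reached 20 CPM in the control section, where 50 were below 1. The 232 and 54 genes were picked on their values in the rIL7 section, so smaller folds in another section are partly set by the choice, and with 1 section each the difference was not tested.

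Gene by gene, H2-Aa stood at 1.24-fold in the control section, C1qa at 1.25-fold, Il7r at 1.26-fold (0.601 to 2.48) and Arg1 at 1.17-fold. Igkc was at 3.13 CPM at the control rim and 0.463 in its interior, and Cxcl12 and Slpi were both at 1.17-fold, while Cpxm1 and Cxcl14 were at 3.31-fold and 3.68-fold. The summed T cell list was at 175 and 152 CPM, 1.16-fold, and MHC class II at 3301 and 2604 CPM, 1.27-fold. Krt14, a keratin of the basal layer of skin, had 199 UMIs at the control rim and 8 in its interior, against 1 at the rIL7 rim. The array positions shared 1702 barcodes between the sections, which is a property of the printed slides.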

How the data were processed

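The authors aligned the Visium reads to the mouse genome mm10 with Space Ranger 1.1.0 and deposited raw UMI counts per gene and spot, with the array position of each spot, for 2 sections (1 control, 1 rIL7). Of 32285 features, 78 rows share a symbol and were kept as separate rows. Spots over tissue with more than 200 genes and under 10% mitochondrial UMIs were kept, which left out 1 spot of the rIL7 section and 2 of the control section. Tissue pieces were found on the hexagonal array, and 21 detached rIL7 spots were left out of the comparison. The outline of the rIL7 section was the same when positions beyond the array were left out. Totals were 3923837 UMIs at the rim and 16430605 in the interior.

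UMIs were summed per region and scaled to 1000000 per region (CPM). Intervals are exact, Clopper-Pearson for ratios and shares and Poisson for sums, at 95%, and cover counting error only. A region at 0 was set to a floor of 3 UMIs in list medians. With 1 section per group no test was run, and the size rule was a mean of at least 20 CPM and a ratio of at least 2 or at most 0.5. Named genes were the members of the lists described, the 15 genes with the highest and the 15 with the lowest ratio among those past the size rule whose 4 rim and 4 interior quadrants did not overlap, and 12 genes the study used. The 46 lists held 476 genes, of which 470 were in the files. The rim, its rule and the lists were chosen with earlier results of these data known. Positions are from RefSeq on GRCm38.p6, the assembly mm10 is built on. Doublet calling does not apply to spots, and no cell-type makeup was estimated.

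The ratios of single genes, their intervals and the steps on the array were tested on simulated data. The alternatives tried were other spot filters, rim widths and interiors, equal weights per spot, scaling by the trimmed mean of M values (edgeR 4.0.16) or median of ratios, totals without abundant gene classes, and leaving out quadrants or sectors. Python 3.11.15 was used with numpy 2.4.6, scipy 1.17.1, pandas 2.3.3 and matplotlib 3.10.9. A search of promoters for motifs was not run, and no sequence is shown. Some listed genes are not reported here.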

Additional observations from a re-analysis of the deposited data

Results flagged for a closer look

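Among lists with at least 3 measured genes in both sections and the genes named by rule, 14 list medians and 5 genes stood on opposite sides of 0 in the sections on the log2 scale (log2 of rim over interior). The differences between the sections were not tested, since each group had 1 section. The medians above 0 in the rIL7 section and below it in the control section were 1.44 and -0.09 for dendritic cell, 1.31 and -0.16 for endothelial, 0.99 and -0.01 for collagen and matrix, 0.84 and -0.22 for pro-inflammatory and 0.73 and -0.03 for immediate early genes. Smaller ones were 0.28 and -0.02 for alternative activation, 0.19 and -0.0022 for the IL-7 axis, 0.071 and -0.086 for TGF-beta, 0.039 and -0.19 for resident-like macrophage and 0.028 and -0.046 for heme and iron genes. The reverse held for hypoxia and glycolysis at -0.23 and 0.03, matrix proteases and inhibitors at -0.11 and 0.16, nuclear respiratory chain at -0.082 and 0.0012, and amino acid stress at -0.022 and 0.26. Among the genes Jchain had log2 folds of 5.39 and -0.64, the latter from 2 UMIs at the control rim and 9 in its interior. Arg1 was at -0.90 and 0.22, Cd68 at 0.22 and -0.08, Il1b at 0.23 and -0.21 and Rpl39l at -0.40 and 0.05. For Il1b the counting intervals of both folds excluded 1, at 1.18-fold (1.08 to 1.28) and 0.864-fold (0.783 to 0.952). Medians and sums did not always share a side. In the control section the sums of the pro-inflammatory, dendritic cell, endothelial, alternative activation, resident-like macrophage and TGF-beta lists were above the interior. The counting intervals of the dendritic cell, endothelial, alternative activation and resident-like macrophage sums included 1 there. Rim and interior quadrants of all these lists overlapped in that section. In the rIL7 section the sums of alternative activation and TGF-beta were below the interior, at log2 folds of -0.087 and -0.14. Their control sums were at 0.091 and 0.052, on the other side of 0. For alternative activation the counting intervals of both sums included 1, at 0.941-fold (0.857 to 1.03) in the rIL7 section and 1.06-fold (0.868 to 1.30) in the control section. The side of its sums is therefore not set.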

How the results depend on the processing

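No result answering a comparison changed direction. With step 1 alone as the rim, the lower genes numbered 111 (54 in the report), and the median log2 folds were 5.66 for immunoglobulin and plasma cell, 2.03 for MHC class II, 0.98 for macrophage and 1.28 for collagen and matrix. With steps 1 to 3 the lower genes numbered 22, and the medians were 4.62 for immunoglobulin, 0.73 for macrophage and -0.44 for CT26 genes. With all spots from step 3 as the interior the medians were 3.90 for immunoglobulin and 0.79 for macrophage. With each spot weighted the same, hypoxia and glycolysis was at -0.35. With a mean CPM of at least 5, 565 genes were higher and 145 lower, and with no CPM minimum 962 and 456. Chosen after seeing the data, the rim without sector 6 gave 2.88 for immunoglobulin, and the rim without sectors 4 and 5 gave 393 higher and 105 lower genes, and 2.41 for T cell, 2.20 for MHC class II, 1.17 for macrophage, -0.64 for CT26 and -0.84 for hypoxia and glycolysis. Leaving out each quadrant in turn gave 199 to 291 higher and 50 to 76 lower genes, and medians of 3.22 to 5.48 for immunoglobulin, 0.68 to 1.15 for collagen and matrix, -0.60 to -0.037 for hypoxia and glycolysis, 1.44 to 1.95 for MHC class II, 1.83 to 2.18 for T cell, 0.79 to 0.93 for macrophage and -0.57 to -0.49 for CT26. The cause of these shifts was not tested. All 9 of these results stayed in range under the trimmed mean of M values, median of ratios, other spot filters, other totals and an interior of steps 10 and more. For counts of genes the range was within 1.5 times. For list medians it ran from the median of the genes' lower counting limits to the median of their upper ones. It is not a counting interval of the list median itself. Of 479 values for single genes and other lists, 186 moved out of range and 291 stayed without sectors 4 and 5. With step 1 alone 170 moved and 303 stayed, and both scalings moved 0. In these 2 rim settings and some others, a few of the 479 values were in neither group and are not described here. No gene at least 2-fold from 1 changed sign in any alternative. No paired analysis was possible because each group had 1 section. The promoter motif search was not run. Depth limits genes with few UMIs, such as Il7 and the B cell markers.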

Other observations

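The 21 spots of the rIL7 section that lay in small pieces apart from the main tissue were in no comparison. They held 174106 UMIs with a median of 6137 per spot. Their summed levels were 15358 CPM for collagen and matrix and 11068 for fibroblast genes, against 5721 and 3649.7 at the rim. Schwann cell genes, which make the sheath of nerves, were at 1976 CPM there, adipocyte genes at 2941, and mural and myofibroblast genes at 1091, against 17.3, 239 and 212 at the rim. MHC class II genes were at 4842 CPM in these pieces and immunoglobulin and plasma cell genes at 809.9, both below the rim. CT26 markers were at 850.1 CPM, against 757 at the rim. Mitochondrial transcripts made up 1.02% of their UMIs.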
